A study of Mus musculus with 6 samples.

Results

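The genes of the MYC, MAX and MXD network encode basic helix-loop-helix leucine zipper transcription factors. The members were taken as the rows of the deposited table whose gene name is Myc, Mycn, Mycl, Max, Mxd1, Mxd3, Mxd4, Mxi1, Mnt or Mlx. Of these 10 genes, 9 were present among the 15553 listed, and Mycl was not analysed here. MAX is the shared partner of the network. With MYC proteins it forms dimers that activate transcription at the E-box, a short DNA element, and with MXD proteins or MNT it forms dimers that recruit the SIN3 corepressor to the same element. MLX is a related partner that binds part of the MXD family and the glucose-responsive factors MLXIP (MondoA) and MLXIPL. In blood stem cells MYC is known for its part in the balance between self-renewal and differentiation, and MYC and MYCN are known to act redundantly there.

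RNA was measured in bone marrow stem cells sorted from C57BL/6 mice aged 6 to 8 weeks. The knockout mice were labelled Yy1f/f;Mx1-Cre, with loxP sites at both copies of Yy1, and the wild-type mice were labelled Mx1-Cre, so both genotypes carried the Cre. There were 3 libraries of each genotype. Mx1-Cre is driven by an interferon-inducible promoter that is active in many cell types besides stem cells, and its induction is not described in the labels. The protocol names both CD150+ and CD150- cells of the Lin-Sca1+c-Kit+CD48- fraction, whereas the source field of every sample names CD150+ cells alone. The labels do not say that each library came from its own mouse, so p-values cover the spread among the libraries as sequenced, which may be partly technical.

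Levels are given in RPKM, reads scaled by gene length and by library size, which allows genes to be set beside each other. Reads in listed genes, recovered from RPKM values and gene lengths, numbered 19473177 to 21757041 per knockout library and 15102983 to 18460011 per wild-type library. In all 6 libraries this sum exceeded the library size inferred from the same RPKM values, so the sums are estimates and not exact counts. The reason for the excess was not tested. Yy1 itself stood at 36.2, 16.6 and 28.5 RPKM in knockout replicates 1 to 3, against 31.6, 42.3 and 52.1 RPKM in wild type replicates 1 to 3. The library labelled Yy1 knockout replicate 1 thus lay within the wild-type range, so every knockout value below refers to the label. All 14 stem cell markers looked for, Kit, Ly6a and Slamf1 among them, were listed, and their summed level was 538 to 574 RPKM in knockout and 733 to 812 RPKM in wild type. Summed megakaryocyte markers, 7 of 7 listed, reached 53.8 to 111 RPKM in knockout and 28.8 to 37.9 RPKM in wild type. Erythroid markers, 7 of 10 listed, summed to 70.1 to 154 RPKM in knockout and 51.1 to 62.7 RPKM in wild type. Granulocyte and monocyte markers, 10 of 12 listed, summed to 37.8 to 304 RPKM in knockout and 20.0 to 173 RPKM in wild type. Of 12 lymphoid markers 3 were listed, at a sum of 18.3 to 28.3 RPKM in knockout and 18.3 to 37.3 RPKM in wild type. No listed marker was at 0 in all 6 libraries. The part of these cells in the results below was not tested, and in bulk RNA fewer cells of a type cannot be told apart from less RNA per cell.

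The E-box links the members to each other, since the element that MYC and MAX bind can also stand in their own promoters. RefSeq promoters (GRCm38.p6, 300 bases, from 250 before to 50 after a gene's start) were matched by symbol to 8 of the 9 members, all but Myc. CACGTG, a palindrome and therefore the same on both strands, was found in 4 of these 8 members, Max, Mnt, Mlx and Mxd4. It was present in 12.2% of the 8423 tested genes with a promoter in the table and in 7.15% of all 32851 promoters. The stretches around these elements are shown 5′ to 3′ on each gene's strand, 60 bases each, because they hold the element that the proteins of the network are known to bind, and capitals mark the E-box. The element begins 3 bases before the RefSeq start of Max, 40 before that of Mlx, 123 before that of Mnt and 219 before that of Mxd4. Starts in this part are those of RefSeq and can differ from the gene coordinates given below.
Max (chr12:76962219-76962278, minus strand): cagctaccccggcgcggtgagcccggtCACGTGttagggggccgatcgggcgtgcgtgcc
Mlx (chr11:101087223-101087282, plus strand): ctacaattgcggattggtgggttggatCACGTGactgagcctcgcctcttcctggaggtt
Mnt (chr11:74830774-74830833, plus strand): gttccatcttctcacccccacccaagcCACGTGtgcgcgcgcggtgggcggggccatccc
Mxd4 (chr5:34187897-34187956, minus strand): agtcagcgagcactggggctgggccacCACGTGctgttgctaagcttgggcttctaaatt
The letters AANATGG, part of the known YY1 element, were searched on both strands in the same windows. They were found in 1 of the 8 members, Mnt, on the opposite strand and 147 bases before its start, and in 18.5% of the tested genes with a promoter. These are matches of letters and were not tested as binding sites.

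Among the members, transcripts of Max, Mycn and Myc were the most abundant, together 75.7% to 77.3% of the summed RPKM of the 9 genes in knockout libraries and 65.8% to 77.4% in wild-type libraries. In knockout, Max (49.9 ± 15.2 RPKM), Mycn (49.2 ± 8.09 RPKM) and Myc (37.3 ± 8.82 RPKM) came first (SD, n = 3, as for all means here). In wild type the order was Myc (54.0 ± 11.7 RPKM), Max (48.8 ± 1.98 RPKM) and Mycn (34.3 ± 10.9 RPKM). Neighbours among these 3 overlapped in their ranges within each genotype, so their order is not fixed by 3 libraries. Below them stood Mxd4, Mnt, Mlx, Mxi1 and Mxd1, with means of 5.75 to 11.1 RPKM in knockout and 5.31 to 18.6 RPKM in wild type, and again neighbours overlapped. Mxd3 came last in both genotypes, at 1.62 ± 1.46 RPKM in knockout and 0.555 ± 0.367 RPKM in wild type. The gap between Myc and Mxd4 in knockout and the gap between Mxd1 and Mxd3 in wild type were the only places in these orders where the ranges of neighbours were apart.

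**Figure D1:**
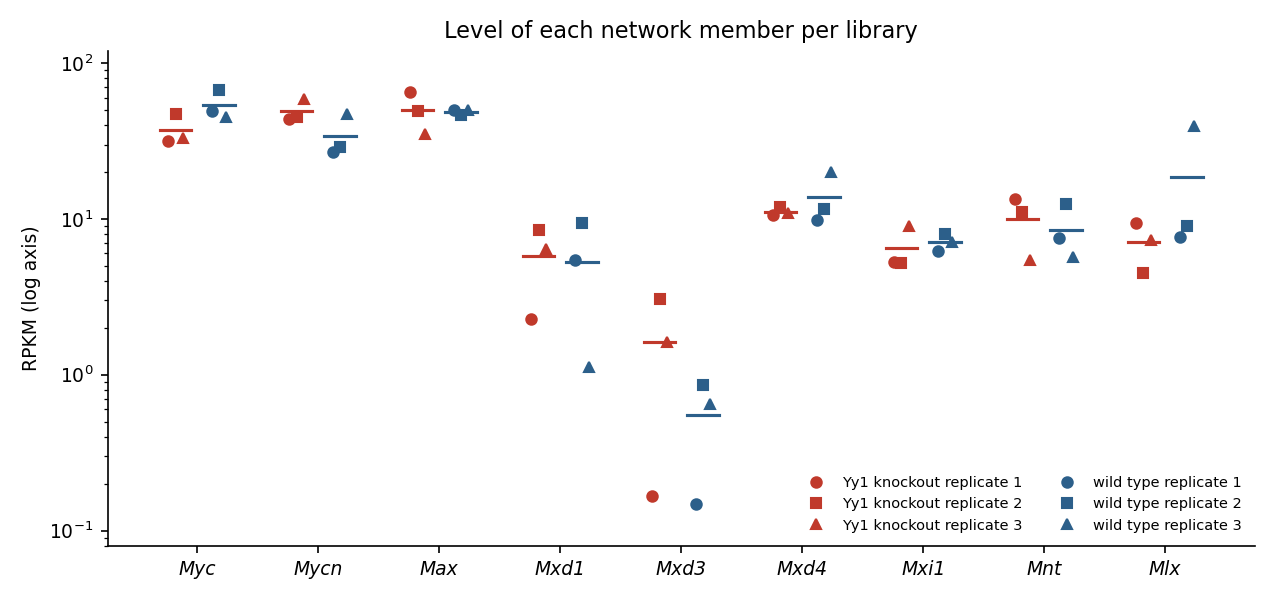
RPKM of each of the 9 members on a log axis, with 1 point per library (circle, square and triangle for replicates 1, 2 and 3), Yy1 knockout in red on the left and wild type in blue on the right, and a bar at the mean. For every gene the points of the genotypes overlap, and the wild type replicate 3 point of Mlx stands at 39.2 RPKM, above the other libraries.

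The comparison of Yy1 knockout with wild type asked whether the network's transcripts differ between the genotypes as labelled. None of the members passed. In limma on log2(RPKM + 0.5), 0 of the 8 tested members had a Benjamini-Hochberg adjusted p under 0.05, where 0 of all 13179 genes tested did (0%). The smallest adjusted p over all genes was 0.0654. At an unadjusted limma p under 0.05 there were 0 of the 8 members and 1027 of all genes (7.79%). Levels did not overlap between the genotypes in 0 of the 9 members and in 14.5% of the tested genes. In a limma-voom fit of the recovered reads, added after the data were seen, 0 of the 8 members passed, against 0.0458% of genes, and 1 of them, Mycn, had an unadjusted p under 0.05, against 8.14% of genes. By direction, 3 of the 8 tested members had a log2 fold change above 0 and 5 below, with a median of -0.08. Over all tested genes 51.9% lay above 0, with a median of 0.02. The ninth member, Mxd3, was below the filter of 1 RPKM in at least 3 libraries.

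Myc (ENSMUSG00000022346, chromosome 15: 61985391 to 61990374, mm10) encodes the best known activator of the network. It stood at 31.4, 47.5 and 33.1 RPKM in knockout replicates 1 to 3, against 49.3, 67.3 and 45.3 RPKM in wild type replicates 1 to 3. All 3 knockout values lay below the wild-type mean, and the groups overlapped only in that knockout replicate 2 was above wild type replicate 3. The log2 fold change was -0.53 (standard error, SE, 0.24), with a 95% interval from -1.09 to 0.03, a fold of 0.693. The limma p was 0.0594 and its adjusted p 0.657. The authors' deposited table lists Myc at a log2 fold change of -0.55, an unadjusted p of 0.0325 and an adjusted p of 0.601.

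Mycn (ENSMUSG00000037169, chromosome 12: 12936093 to 12941914) encodes a second MYC protein with the same partner and the same DNA element. Its levels were 43.8, 45.3 and 58.5 RPKM in knockout, against 26.9, 29.0 and 46.8 RPKM in wild type. Each knockout library exceeded the wild-type mean, while wild type replicate 3 stood among the knockout values and the other wild-type libraries stood below all of them. The log2 fold change was 0.55 (SE 0.26), with a 95% interval from -0.05 to 1.14, a fold of 1.46. In limma the p was 0.0666 and the adjusted p 0.666. In the authors' deposited table Mycn has a log2 fold change of 0.56, an unadjusted p of 0.0304 and an adjusted p of 0.601. There, 2 of the 9 members, Myc and Mycn, had an unadjusted p under 0.05, against 8.02% of all listed genes, and 0 of the 9 an adjusted p under 0.05, against 0.154%.

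The differences of Myc and Mycn were of about the same size with opposite signs, and the sum of their levels was nearly the same in both genotypes. Myc and Mycn together made 75.2, 92.8 and 91.6 RPKM in knockout and 76.3, 96.3 and 92.1 RPKM in wild type, which gives means of 86.5 ± 9.85 RPKM and 88.3 ± 10.6 RPKM. The difference of these means is smaller than the spread within either genotype. This sum was looked at after the values of the single genes had been seen. Within a library, where scaling cancels, the ratio of Myc to Mycn was 0.717, 1.05 and 0.566 in knockout and 1.83, 2.32 and 0.969 in wild type. Myc exceeded Mycn in 1 knockout library and in the wild-type libraries except replicate 3, so the ratios overlapped by that library. Myc contributed 43.0% ± 7.58 of the Myc and Mycn sum in knockout and 61.3% ± 10.7 in wild type.

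**Figure D2:**
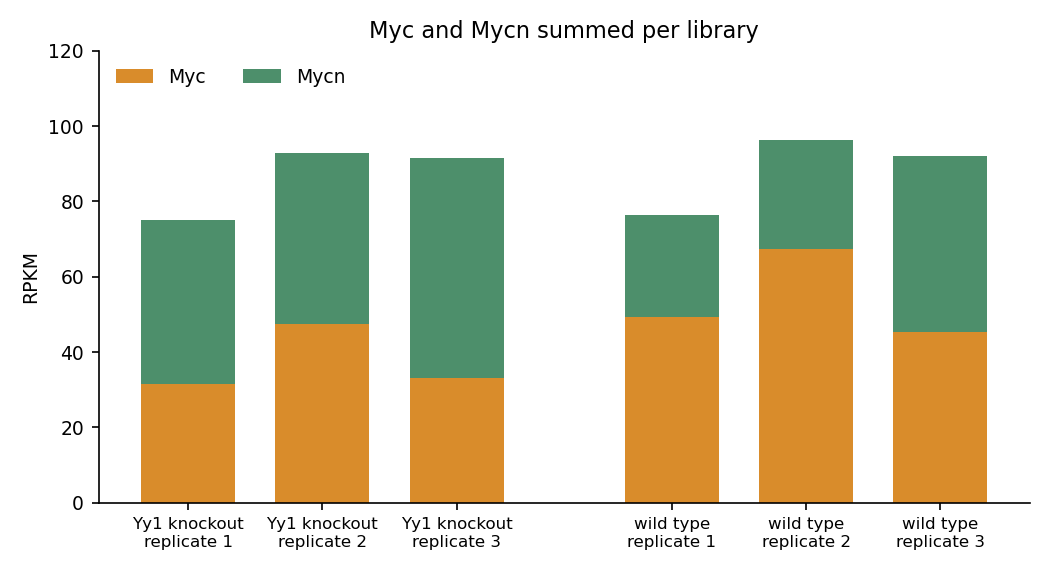
Stacked bars of Myc (orange, below) and Mycn (green, above) in RPKM for each library, the 3 Yy1 knockout libraries on the left and the 3 wild-type libraries on the right. Bar heights run from 75.2 to 92.8 RPKM in knockout and from 76.3 to 96.3 RPKM in wild type, while the green section is 43.8 to 58.5 RPKM in knockout and 26.9 to 46.8 RPKM in wild type.

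Libraries mattered for both genes. Without wild type replicate 3, the log2 fold change of Mycn was 0.79 (limma adjusted p = 0.447) and that of Myc was -0.64 (limma adjusted p = 0.573). Leaving out the library labelled Yy1 knockout replicate 1 gave 0.62 for Mycn and -0.42 for Myc. With 1 library left out at a time, Mycn ranged from 0.40 to 0.79 and Myc from -0.71 to -0.36, and neither passed the adjusted threshold or changed its sign.

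By the rule used, the tested genes whose levels over the 6 libraries were most like those of Myc were Ttc33, with a Pearson correlation of 0.987, Hist2h2ac with 0.978 and Slc9a8 with 0.972. They were found among 9245 genes of at least 5 RPKM on average, and the points share libraries and depth, so the correlations only describe. Hist2h2ac, a histone H2A gene with near-identical copies that can share reads, averaged 1.65 RPKM in knockout and 9.59 RPKM in wild type. It thus met the average of 5 RPKM only through wild type. Genes picked for likeness to Myc, which was lower in knockout, tend to share that direction by choice, so these means are no separate result.

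Max (ENSMUSG00000059436, chromosome 12: 76937269 to 76962201) is the obligate partner of the MYC proteins. Its levels were 65.6, 49.0 and 35.3 RPKM in knockout, against 49.8, 46.5 and 50.1 RPKM in wild type. The wild-type libraries were tightly grouped, and the knockout libraries lay on both sides of them. The log2 fold change was -0.01 (SE 0.24), with a 95% interval from -0.57 to 0.55, so a change of up to about that size in either direction is not excluded by these libraries. The limma adjusted p was 0.996. The summed level of Myc and Mycn was 1.15, 1.89 and 2.60 times that of Max in knockout and 1.53, 2.07 and 1.84 times in wild type.

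The MXD family and MNT encode the repressor partners of MAX. Mxd4 (ENSMUSG00000037235, chromosome 5: 34173883 to 34187720) had the highest mean of them, at 10.6, 11.9 and 10.9 RPKM in knockout, against 9.78, 11.6 and 20.1 RPKM in wild type. The knockout libraries sat with wild type replicates 1 and 2, and wild type replicate 3 stood above all others. Its log2 fold change was -0.24 (SE 0.32, limma adjusted p = 0.880), and without that library it was 0.06.

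Mnt (ENSMUSG00000000282, chromosome 11: 74830920 to 74845725), which encodes a repressor made in resting and dividing cells alike, stood at 13.5, 11.1 and 5.43 RPKM in knockout and at 7.49, 12.5 and 5.70 RPKM in wild type. Both genotypes covered almost the same range. The log2 fold change was 0.19 (SE 0.44, limma adjusted p = 0.940).

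Mxi1 (ENSMUSG00000025025, chromosome 19: 53310518 to 53375810), also known as Mxd2, stood at 5.28, 5.19 and 8.96 RPKM in knockout and at 6.21, 7.95 and 7.09 RPKM in wild type. Knockout replicate 3 was above every wild-type library and the other knockout libraries were below them. Its log2 fold change was -0.16 (SE 0.35, limma adjusted p = 0.938).

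Mxd1 (ENSMUSG00000001156, chromosome 6: 86647042 to 86669161), which encodes MAD1, a repressor that rises as cells differentiate, varied widely within each genotype. It stood at 2.29, 8.53 and 6.41 RPKM in knockout, from 282, 1056 and 886 reads. In wild type it stood at 5.46, 9.35 and 1.12 RPKM, from 499, 1065 and 117 reads. The lowest libraries were wild type replicate 3 and knockout replicate 1, so each genotype held a low library. The log2 fold change was 0.29 (SE 0.76), with a 95% interval from -1.47 to 2.06, and the limma adjusted p was 0.948. Its residual spread on the log2 scale was exceeded by 14.3% of tested genes, whereas that of Myc was exceeded by 73.9%.

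Mxd3 (ENSMUSG00000021485, chromosome 13: 55325168 to 55329823), which encodes MAD3, the member known for its expression during S phase, was thinly covered. It stood at 0.166, 3.08 and 1.62 RPKM in knockout, about 6.8, 127.5 and 75.1 reads. In wild type it stood at 0.149, 0.865 and 0.650 RPKM, about 4.6, 33.0 and 22.8 reads. Replicates 2 and 3 of the knockout were above all wild-type libraries, and knockout replicate 1 was close to the lowest of them. In limma with no filter its log2 fold change was 0.77 (SE 0.74), and its adjusted p was 0.838. Mxd3 shares 105 exonic bases with Prelid1 on the opposite strand, which is listed at 30.3 to 45.4 RPKM in knockout and 40.7 to 55.9 RPKM in wild type. With no strand setting known, reads in that overlap cannot be told apart. The same holds for Mxd4 and Mxi1, which share 514 and 194 exonic bases with Gm42846 and Gm10197, unlisted genes on the opposite strand.

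Summed over Mxd1, Mxd3, Mxd4, Mxi1 and Mnt, the repressor genes made 31.9, 39.7 and 33.3 RPKM in knockout and 29.1, 42.2 and 34.6 RPKM in wild type. The ratio of Myc plus Mycn to this sum was 2.36, 2.34 and 2.75 in knockout and 2.62, 2.28 and 2.66 in wild type. The mean ratios, 2.48 ± 0.233 and 2.52 ± 0.209, differed by less than the spread within either genotype. These are ratios of transcripts and say nothing of protein.

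Mlx (ENSMUSG00000017801, chromosome 11: 101087277 to 101092207) had the log2 fold change farthest from 0 among the 8 tested members, and a single library set it. It stood at 9.40, 4.49 and 7.32 RPKM in knockout, from 327, 157 and 286 reads. In wild type it stood at 7.63, 8.94 and 39.2 RPKM, from 197, 288 and 1159 reads. Wild type replicate 3 was above 4 times every other library, and the remaining wild-type values lay among the knockout ones. The log2 fold change was -0.99 (SE 0.62), with a 95% interval from -2.44 to 0.45 (limma adjusted p = 0.748). Without wild type replicate 3 it was -0.27 (limma adjusted p = 0.878). Psmc3ip, which shares 385 exonic bases with Mlx on the opposite strand, stood at 7.14 RPKM in that library and at 6.77 and 9.42 RPKM in wild type replicates 1 and 2. The high value of Mlx was thus not seen in the gene it overlaps.

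**Figure D3:**
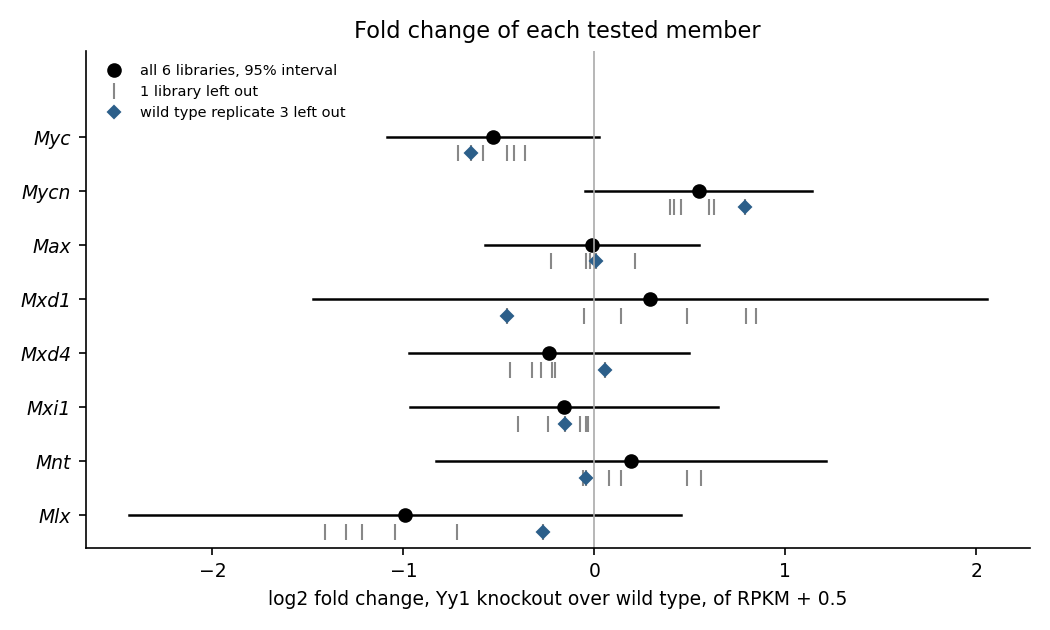
Log2 fold change of RPKM + 0.5, Yy1 knockout over wild type, for the 8 tested members. Black dots and lines give the estimate and 95% interval over all 6 libraries, grey ticks the estimates with 1 library left out, and blue diamonds those without wild type replicate 3. Every interval includes 0, and the estimates of Myc and Mycn keep their sign with any single library left out, while that of Mlx moves to -0.27 without wild type replicate 3.

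Wild type replicate 3 held the highest value of Mlx and of Mxd4 and the lowest of Mxd1 among all 6 libraries. Its share of Mlx in the summed RPKM of the network was 18.1%, against 4.61% to 4.68% in the other wild-type libraries and 2.41% to 5.16% in knockout. Of the members' shares of that sum, the share of Mycn alone did not overlap, at 24.1% to 34.9% in knockout and 15.0% to 21.7% in wild type. With Mlx left out of the sum it was 25.0% to 36.5% in knockout and 15.7% to 26.5% in wild type, which overlapped.

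Genes around the network were described from lists by function. Among 7 tested relatives and partners, 3 had a log2 fold change above 0 and 4 below, with a median of -0.17, and 0 had an unadjusted limma p under 0.05. Mga, which encodes a large MAX partner of repressive complexes, stood at 28.1, 22.8 and 25.2 RPKM in knockout and at 30.9, 33.7 and 30.9 RPKM in wild type. All its knockout values lay below all wild-type ones, as they did for 6.87% of tested genes, with a log2 fold change of -0.33 (SE 0.18, limma adjusted p = 0.723). Mlxip, the gene of MondoA, stood at 16.7 ± 1.91 RPKM in knockout and 19.0 ± 3.68 RPKM in wild type. Mycbp averaged 6.29 ± 1.57 RPKM in knockout and 4.61 ± 1.21 RPKM in wild type, and Mycbp2, which encodes a large ubiquitin ligase, 32.8 ± 1.87 RPKM and 38.5 ± 9.35 RPKM.

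The 15 coactivator genes, whose products MYC brings to chromatin, had a median log2 fold change of 0.07, and 1 of them had an unadjusted limma p under 0.05 with a positive sign, where 4.73% of all tested genes did. This was Hcfc1, a chromatin cofactor gene, at 44.1 ± 2.79 RPKM in knockout and 32.8 ± 1.28 RPKM in wild type (log2 fold change 0.42, limma adjusted p = 0.619). Kat2a, the gene of the acetyltransferase GCN5, stood at 14.4 ± 3.54 RPKM in knockout and 20.0 ± 0.535 RPKM in wild type, with no overlap. Over the 15 genes the genotypes did not overlap in 1 that was higher and 1 that was lower in knockout. Of all tested genes 7.63% and 6.87% were so placed. Kat5, the gene of the acetyltransferase TIP60, had a log2 fold change of 0.43.

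The 16 corepressor genes, which serve MXD proteins and MNT, had a median of -0.03 and 0 with an unadjusted limma p under 0.05. Sin3b, a scaffold of that complex, averaged 17.7 ± 3.07 RPKM in knockout and 12.4 ± 5.01 RPKM in wild type. The deacetylase genes Hdac1 and Hdac2 had log2 fold changes of 0.43 and -0.27, and Brms1 one of -0.39.

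Of 18 tested genes of MYC protein turnover, 11 lay above 0, with a median of 0.08. At an unadjusted limma p under 0.05 there was 1, higher in knockout, where 4.73% of all tested genes lay, so the list was near that share. The gene was Aurka, a mitotic kinase gene whose product is known to stabilise MYCN protein. It stood at 12.9, 12.6 and 5.60 RPKM in knockout, against 3.64, 3.90 and 0 RPKM in wild type (log2 fold change 2.29, SE 0.87, limma adjusted p = 0.608). Skp2, which encodes an F-box protein that targets MYC, stood at 9.20 ± 2.47 RPKM in knockout and 5.56 ± 0.664 RPKM in wild type. In Aurka and Skp2 the genotypes did not overlap, as in 7.63% of all tested genes in that direction. Usp28, a deubiquitinase gene, had a log2 fold change of 0.74, and the kinase gene Gsk3a one of 0.42.

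Genes that MYC is known to activate lay on both sides of 0. Of 35 growth targets 23 lay above 0, and the list's median log2 fold change was 0.21 beside 0.02 over all genes tested. At an unadjusted limma p under 0.05 there were 4 higher and 1 lower, where 4.73% and 3.06% of all tested genes lay, and none passed adjustment. Srm, which encodes spermidine synthase, stood at 38.5, 31.7 and 19.6 RPKM in knockout, against 13.4, 19.2 and 13.9 RPKM in wild type (log2 fold change 0.89, limma adjusted p = 0.567). Npm1, the gene of a nucleolar chaperone, stood at 274, 275.0 and 364 RPKM in knockout and at 175, 195 and 262 RPKM in wild type. The lactate dehydrogenase gene Ldha averaged 106 ± 12.9 RPKM in knockout and 78.7 ± 7.28 RPKM in wild type. In the other direction, Npm3, a relative of Npm1, stood at 9.20, 14.5 and 14.1 RPKM in knockout and at 26.5, 18.2 and 35.2 RPKM in wild type (log2 fold change -1.03, limma adjusted p = 0.545). The genotypes did not overlap in any of these 4 genes, which have the smallest p of the list. Over the 35 genes they did not overlap in 6 that were higher and 2 that were lower in knockout, where 7.63% and 6.87% of all tested genes were so placed.

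Among 7 tested genes that MYC is known to repress, the median was -0.18 and 0 passed adjustment. At an unadjusted limma p under 0.05 there was 1, lower in knockout, where 3.06% of all tested genes lay. That gene, Ndrg1, stood at 11.1, 15.5 and 12.7 RPKM in knockout and at 28.6, 35.6 and 32.9 RPKM in wild type. Its log2 fold change was -1.28 (SE 0.22) at a limma adjusted p of 0.262, and the authors' deposited table calls it at an adjusted p of 0.00495. Cdkn1b, the gene of the cell cycle inhibitor p27, averaged 11.4 ± 1.04 RPKM in knockout and 15.5 ± 1.34 RPKM in wild type. In these 2 genes the genotypes did not overlap, as in 6.87% of all tested genes in that direction. Gadd45a and Cdkn1a had log2 fold changes of -0.73 and -0.18, with SE of 0.92 and 0.99, and stood at 2.88 ± 2.99 and 1.93 ± 1.52 RPKM in knockout and 5.37 ± 4.22 and 2.43 ± 1.98 RPKM in wild type.

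Genes listed as glucose-responsive targets of MLX with MLXIP or MLXIPL had log2 fold changes below 0 in 5 of 5, with a median of -0.59, and 0 of them passed adjustment. At an unadjusted limma p under 0.05 there were 2, against 3.06% of tested genes in that direction. In 3 all knockout values lay below all wild-type ones, as they did for 6.87% of tested genes. Arrdc4, an arrestin-domain gene, stood at 8.35, 5.63 and 3.31 RPKM in knockout, against 17.1, 8.88 and 8.39 RPKM in wild type (log2 fold change -0.94, SE 0.44, limma adjusted p = 0.666). The zinc-finger gene Klf10 stood at 11.1, 9.55 and 9.72 RPKM in knockout and at 16.2, 12.6 and 18.1 RPKM in wild type (log2 fold change -0.59, limma adjusted p = 0.639). Txnip, the best known of these targets, had a log2 fold change of -1.55 (SE 0.24) and a limma adjusted p of 0.215, and the authors' deposited table calls it at an adjusted p of 0.000107. Arrdc3 overlapped between genotypes, with its second highest value, 16.9 RPKM, in knockout replicate 2, at a log2 fold change of -0.43. In wild type replicate 3, the library with the high Mlx value, Txnip (201 RPKM, beside 178 and 121 RPKM in wild type replicates 1 and 2), Klf10 (18.1 RPKM) and Arrdc3 (17.2 RPKM) also had their highest values. Arrdc4 went the other way, with its highest value in wild type replicate 1 and its lowest wild-type value, 8.39 RPKM, in wild type replicate 3. These values describe 1 library, and a link of them to Mlx was not tested.

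Beside the network, 20 of 20 cell division genes had positive log2 fold changes, of which the median was 0.89. At an unadjusted limma p under 0.05 there were 15, where 4.73% of all tested genes lay in that direction, and 0 of the 20 passed adjustment. The kinesin gene Kif11 stood at 40.6 ± 1.04 RPKM in knockout and 14.8 ± 0.412 RPKM in wild type. The proliferation marker gene Mki67 stood at 143, 159 and 157 RPKM in knockout, against 59.0, 73.4 and 29.5 RPKM in wild type. Wild type replicate 3 had the lowest Mki67 and the highest wild-type Mycn (46.8 RPKM), and knockout replicate 1 had a Mki67 level close to the other knockout libraries with Mxd3 at 0.166 RPKM. The part of cell division genes and of the lower summed stem cell markers in the values of the members was not tested.

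**Figure D4:**
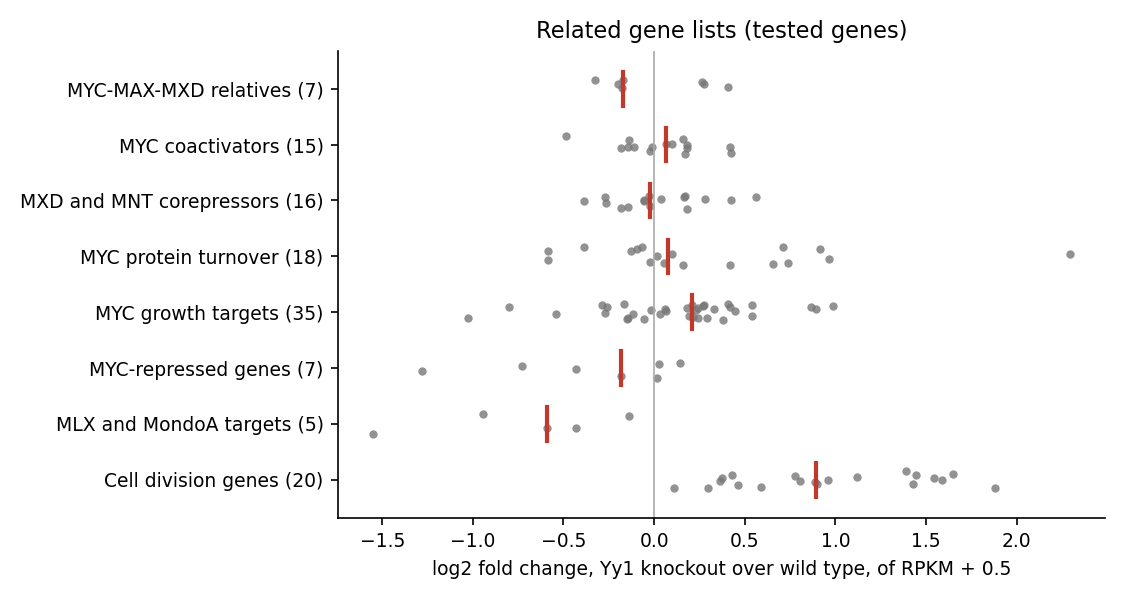
Log2 fold change of RPKM + 0.5, Yy1 knockout over wild type, for the tested genes of 8 related lists (number tested in brackets), with 1 grey point per gene and a red line at each median. Points of the cofactor lists lie on both sides of 0, all 5 MLX and MondoA targets lie below it, and all 20 cell division genes lie above it.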

How the data were processed

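The deposited table holds 1 row per gene with 6 library columns and the authors' comparison. The submitters' processing notes name Subread, featureCounts, limma and edgeR and the mm10 build, without versions or settings. The library columns have no stated unit. They behaved as RPKM made by the authors: multiplied by exonic gene length (GENCODE M21, GRCm38), 71.8% of 15465 genes gave whole multiples of a library's step (tolerance 0.02 reads) in every library. For Mxd1, Mxd4, Mnt and Mlx the reads came out whole, and for the other members they are estimates. Per the file headers, the authors also deposited a log2 fold change and a p-value per gene, raw and adjusted, from a test not named there.

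Genotypes were compared with limma (version 3.58.1, R version 4.3.3) on log2(RPKM + 0.5), with a variance trend. A gene was tested if it reached 1 RPKM in 3 or more libraries, which left 13179 genes, all of which entered the Benjamini-Hochberg adjustment. A fold change on this scale understates the change of low genes. The fit was tested on simulated data. The members and lists were chosen with earlier results of these data known, and no list was tested as a set. All members were named. Of each list the 4 genes with the smallest p were named, along with any gene the authors' deposited table calls (1 of these genes is not reported here), and of the cell division and marker lists only those needed beside the members. The library kit amplifies RNA, so reads are not independent molecules. Promoter sequences are RefSeq's, and coordinates of genes are those of M21.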

Additional observations from a re-analysis of the deposited data

How the results depend on the processing

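Across 17 alternatives, 15 of them planned, 0 network members were called in any, and the signs of Myc, Mycn, Mxi1 and Mlx held in all. Of all genes, 0 were called, except for 0 to 1 with 1 library left out at a time and 6 in limma-voom on recovered reads, an alternative chosen after seeing the data, which included no member, while 713 to 1197 genes had an unadjusted p under 0.05. Max, Mnt, Mxd1 and Mxd4 changed sign in 2 to 4 alternatives each. In limma-voom Max was at 0.039. Without both wild type replicate 3 and Yy1 knockout replicate 1, also chosen after seeing the data, Mnt was at -0.30 and Mxd4 at 0.087. With 1 library left out at a time, log2 fold changes ranged from -0.23 to 0.21 for Max, from -0.059 to 0.56 for Mnt, from -0.46 to 0.85 for Mxd1, from -0.44 to 0.058 for Mxd4, from -0.40 to -0.03 for Mxi1 and from -1.41 to -0.27 for Mlx. The cause was not tested. An unadjusted p under 0.05 was reached by Mycn in 5 alternatives and by Myc in 3. Those of Mycn included both alternatives chosen after seeing the data. With a replicate block Mycn and Myc each reached it, at limma adjusted p of 0.599 for Mycn and 0.588 for Myc, and 0 of all genes were called. No source says that the numbers pair the libraries. Same-numbered libraries deviated together at correlations of 0.015, 0.059 and 0.047, beside -0.076 to 0.035 for differently numbered ones. Each knockout library and wild type replicates 2 and 3 correlated best with their own number, whereas wild type replicate 1 correlated best with knockout replicate 2. The numbers are those of the sample titles. Deviations from a genotype's mean sum to 0, so these correlations depend on each other and cannot decide whether the libraries pair. Depth limits Mxd3, with under 10 reads in 1 library of each genotype.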
